A study of Mus musculus with 80 samples.

Results

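Fstl5, Pde5a and Gsta4 were examined in AgRP neurons of mice with and without Bmal1, the clock transcription factor gene whose symbol is Arntl. These 3 of 23337 genes in the deposited table were chosen because they differed by genotype in a series of libraries that compared leptin with PBS. The genotype values of that series are therefore given as a description, without a test of the members. In all 12 knockout libraries Fstl5 was above each of the 13 controls. Pde5a was above each control in 9 of 12, and Gsta4 was below each control in 6 of 12. Choice by genotype favours such separation, and the share of all genes that separate was not counted.

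AgRP neurons of the arcuate nucleus (ARH in the labels) promote feeding, are activated by fasting and are restrained by leptin. Fstl5 encodes a secreted follistatin-related glycoprotein with a domain of the SPARC type, and its function in these neurons is little known. Pde5a encodes the cGMP-specific phosphodiesterase that ends cGMP signals, an enzyme best known from vascular smooth muscle. Gsta4 encodes a glutathione S-transferase that conjugates glutathione to reactive aldehydes formed from oxidised lipids, 4-hydroxynonenal above all. Bmal1 protein pairs with Clock or Npas2, binds E-box sequences and drives, among others, the Per, Cry and Nr1d genes.

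The 80 RNA-seq libraries fell into 20 groups. The leptin series held 13 libraries of floxed controls (genotype WT;BMAL1fx) and 12 of knockouts (AGRP-Cre;BMAL1fx), given PBS or leptin and collected at Zeitgeber time 2 (ZT2) or ZT14, with 3 libraries a group and 4 controls at ZT2 with PBS. Controls and knockouts of this series thus both carry the floxed Bmal1 allele. A smaller series of the same genotypes at ZT5, with no treatment named, held 2 libraries labelled control and 3 labelled knockout. GFP-sorted cells of NPY::hrGFP mice, with no Cre and no floxed allele by label, gave 33 libraries from mice fed ad libitum, fasted for 24 h, or refed for 1 h after the fast, at ZT2 and ZT14. RiboTag immunoprecipitates of AGRP-Cre;RiboTag mice, which carry the Cre driver but no floxed Bmal1 by label, gave 17 libraries from ad libitum fed and fasted mice at the same times. The labels give no age or sex, do not say how the cells of the floxed lines were isolated, and do not say which libraries came from different mice. The p-values therefore reflect the spread between libraries, which may be technical. Cre driven by AgRP recombines in the cells that express it, and RNA of other cells in a sample keeps its Bmal1 transcript.

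Positions are on mm10 with GENCODE M21 annotation, and all 3 are protein-coding genes on the plus strand. Fstl5 lies at chr3:76074270-76710019, Pde5a at chr3:122728947-122859374 and Gsta4 at chr9:78182774-78209349. Agrp, the locus of the Cre driver, lies on chromosome 8. Of the 50-base stretches in their transcripts, none of Fstl5 or Gsta4 and 0.743% of Pde5a also occurred in a transcript of another gene. Pde5a overlaps 2 antisense genes, and whether the counting used strand is not given in the sources used here, so that reads from them cannot be told apart from its own.

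The windows from 250 bases before to 50 after a RefSeq transcription start (GRCm38.p6) were searched on both strands for the canonical E-box CACGTG, the general E-box CANNTG, the D-box TTANGTAA and the nuclear receptor half-site AGGTCA. Gsta4 had 0 windows, so no sequence was searched for it. Fstl5 had 2 windows and Pde5a 1. CACGTG, held by 7.15% of all 32851 windows, and TTANGTAA, held by 2.32%, were in none of the 3. CANNTG was in each of the 3 windows and in 72.3% of all windows, and AGGTCA, held by 16.3%, was in the second Fstl5 window. The sites are shown, 30 bases each on the plus strand with the motif in capitals, because Bmal1 is the deleted factor and Fstl5 and Pde5a were higher together.
Fstl5 E-box, 191 bases before the first start, chr3:76074358-76074387: ccgaccaatgccCAAATGctgattttaatc
Fstl5 E-box, 72 bases before the first start, chr3:76074477-76074506: aaacagttacgtCAGATGtgggggcggggc
Fstl5 E-box, 84 bases before the second start, chr3:76075487-76075516: tggcttcatttaCATATGttgttgtgcagc
Fstl5 half-site, 216 bases before the second start, chr3:76075355-76075384: agcatatttgaaTGACCTactgtttgcata
Pde5a E-box, 193 bases before the start, chr3:122728953-122728982: tctagccttggcCACTTGgcttccggaggg
Pde5a E-box, 155 bases before the start, chr3:122728991-122729020: tcagcgccgaggCAGATGcagaaagccggt
Pde5a E-box, 108 bases before the start, chr3:122729038-122729067: gaggacgcccgcCACCTGggaacctcgggg
A match is a description of the letters, not of binding, and windows in which no letters matched say only that.

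Values are normalised counts as deposited, each the reads of a gene over its library's size factor. The 79 libraries whose whole reads could be recovered held 5.925 to 33.98 M reads. Agrp was at 28240 to 297400 in the leptin series. In ad libitum RiboTag libraries it was at 4840 to 20740, below the 32490 to 85580 of ad libitum NPY-GFP cells. The 25 fasted and 5 ZT5 libraries stood apart from the other 50: the nuclear export factor gene Alyref was at 545.4 to 2756 in the fasted and 1273 to 2173 in the ZT5 libraries, against 12.32 to 81.78. Fasted mice were collected in both the NPY-GFP and the RiboTag series, so every contrast of fasted with ad libitum or refed libraries carries this split within it, and its part in those results cannot be told apart from food.

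The targeted gene and the Cre allele were read first. Arntl had a median of 422.5 in the 13 controls (223.1 to 1211) and 260.5 in the 12 knockouts (107.8 to 526.3), a log2 difference of -0.84 ± 0.207 (SE) with an adjusted p of 0.143 (limma, Benjamini-Hochberg over all genes tested). The groups overlapped except with leptin at ZT2, where controls were at 681.6, 832.2 and 1211 and knockouts at 258.7, 338.2 and 435.8. Hsd11b2, a steroid dehydrogenase gene close to Agrp on chromosome 8, marked the AGRP-Cre libraries: it was at 2092 to 3749 in the knockouts and 1048 to 3971 in all RiboTag libraries, against 0 to 19.74 in the floxed controls and 0 to 23.34 in NPY-GFP cells. Fstl5, Pde5a and Gsta4 can thus be read in libraries that carry the Cre allele with floxed Bmal1 and in others that carry it without.

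In the genotype contrast of the leptin series, 11 of 13942 genes tested passed an adjusted p of 0.05, which is 0.0789%, 4 higher and 7 lower in knockouts, and the members ranked 2, 5 and 10. Since that contrast chose them, their ranks are a description. All 3 passed the filter on low values (10 or more in enough libraries to fill the smallest group) in every comparison made. The other 8 genes were Hsd11b2, Ifit3, Nr1d2, Rasd2, Scd3, Arhgef26, Per3 and Snx30. Nr1d2 (-2.49 ± 0.341, adjusted p = 0.000634, limma) and Per3 (-1.62 ± 0.291, adjusted p = 0.017, limma) are clock genes that Bmal1 is known to drive. Within single strata 0.0215% of genes passed with PBS at ZT2, 0.00717% with PBS at ZT14, 0.00717% with leptin at ZT2 and 0.0215% with leptin at ZT14. Fstl5, Pde5a and Arhgef26 lie on chromosome 3 and Gsta4 on chromosome 9. Hsd11b2 and Rasd2 lie on chromosome 8, that of Agrp.

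Fstl5, the secreted follistatin-related protein, was higher in knockouts at both times and with both treatments. With PBS at ZT2 the 4 controls were at 309.7, 299.4, 271.6 and 194.5 normalised counts and the 3 knockouts at 737.3, 362.1 and 455.2. With PBS at ZT14 controls were at 304.4, 182.3 and 250.1 and knockouts at 1186, 431.2 and 686.8, the highest value of the series among them. No knockout value fell within the controls of its own treatment and time. With leptin at ZT2 controls were at 284.8, 251.3 and 350.9 and knockouts at 546.8, 586.4 and 973.8. With leptin at ZT14 they were at 213.6, 213.1 and 267.2 against 511.8, 516.2 and 587.1, the tightest of the 4 knockout groups. The lowest knockout value, 362.1, was close to the highest control value, 350.9. The mean log2 difference over the 4 strata was 1.22 ± 0.158 (SE), a 2.33-fold higher level, and ranged from 0.90 to 1.55 between strata.

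Pde5a, the cGMP phosphodiesterase, was higher in knockouts in 3 of the 4 strata without overlap. With PBS at ZT2 the controls were at 19.48 to 61.28 and the knockouts at 151.6, 211 and 244.5. With PBS at ZT14 controls were at 17.55, 17.09 and 59.26 and knockouts at 76.7, 149.5 and 159.5. Leptin at ZT14 gave 19.75 to 52.43 in controls and 141.3, 143.2 and 174.3 in knockouts. Leptin at ZT2 was the exception: controls were at 37.11, 88.84 and 45.1 and knockouts at 46.24, 72.53 and 137.7, and only 1 of 3 knockouts was above all controls. The mean log2 difference was 1.76 ± 0.258 (SE), a 3.38-fold higher level. The stratum differences were 2.33, 2.18 and 1.99 where the groups did not overlap and 0.54 with leptin at ZT2. Vascular mural cells are a known site of Pde5a. The summed counts of 9 mural markers were 45.75 to 228.4 in controls and 45.13 to 135.5 in knockouts, and their part in the Pde5a difference was not tested.

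Gsta4, the aldehyde-conjugating transferase, was lower in knockouts in 3 of the 4 strata. With PBS at ZT2 the 4 controls were at 16.82 to 28.72, whereas the 3 knockouts were at 0, 0.9332 and 0, with 1 read in all against 96 in the controls. With PBS at ZT14 controls were at 36.81, 22.79 and 26.32 and knockouts at 16.85, 5.182 and 0. With leptin at ZT2 controls were at 24.23, 19.74 and 28.97 and knockouts at 8.092, 9.613 and 1.391. In these 3 strata every knockout was below all controls of the stratum. With leptin at ZT14 the order turned: controls were at 26.85, 7.255 and 9.357 and knockouts at 11.3, 21.29 and 28.87, overlapping. The mean log2 difference was -2.08 ± 0.386 (SE) on the log2(value + 1) scale, and -1.03 with a pseudocount of 8, since the values are so low.

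The depth behind Gsta4 was thin, with 0 to 70 reads per library and a median of 14 in the leptin series, against 114 to 1690 for Fstl5 and 8 to 262 for Pde5a. In 5 knockout libraries Gsta4 had fewer than 3 reads, the count that a value of 0 still allows. Its level can therefore be called low there but not absent. Among markers of other cell types, the sum of 9 astrocyte markers was 205.9 to 741.4 in controls and 83.54 to 978.3 in knockouts. In the knockouts with PBS at ZT2, where Gsta4 was lowest, the sum was 116.8 to 398.5, and in the matched controls 349.4 to 741.4. Aqp4, Slc1a3 and Gja1 were at a median of 0 in these knockouts and also over all 12 knockouts. All 9 had a median above 0 in the matched controls and over all 13 controls. In the knockouts with leptin at ZT14, where Gsta4 was highest, the sum was 626.7 to 978.3. Among knockouts with PBS at ZT14, the libraries with sums of 83.54, 608.4 and 381.2 had Gsta4 at 16.85, 5.182 and 0. With leptin at ZT2 the sums overlapped, at 223.2 to 340 in controls and 244.8 to 404.6 in knockouts. The knockouts there with sums of 404.6, 339.1 and 244.8 had Gsta4 at 8.092, 9.613 and 1.391. The part of these markers in the Gsta4 difference was not tested. Fewer cells of a type and less RNA per cell cannot be told apart in these bulk libraries.

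**Figure D1:**
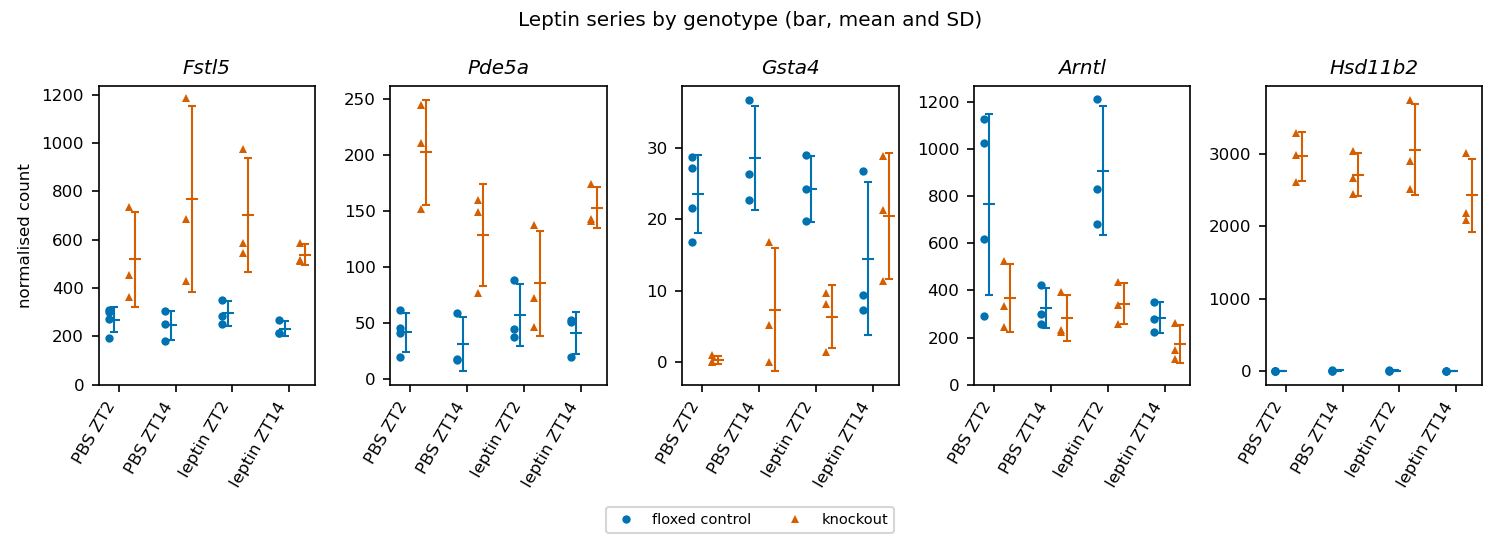
Normalised counts of Fstl5, Pde5a, Gsta4, Arntl and Hsd11b2 in the leptin series, by treatment and Zeitgeber time (linear axes, 1 scale per gene). Blue circles are floxed controls, orange triangles knockouts, and bars show the mean and SD of each group (n = 3, or 4 for controls with PBS at ZT2). Fstl5 is separated in all 4 strata, Pde5a overlaps with leptin at ZT2 and Gsta4 overlaps with leptin at ZT14.

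Per kilobase of exon, Fstl5 was the most abundant of the 3 in both genotypes. Its median level was 28.8 normalised counts per kb in controls and 61.2 in knockouts. Pde5a was at 4.59 and 14.9 per kb, and Gsta4 at 19.1 and 5.24 per kb. In median level per kb, Pde5a was thus below Gsta4 in controls and above it in knockouts.

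The other genes within 1 Mb of each member did not pass the genotype test: 0 of 3 tested near Fstl5, 0 of 14 near Pde5a and 0 of 13 near Gsta4. With 0.0789% of all genes passing, counts of 0 say nothing particular about these neighbours. Their log2 differences ran from 0.00 to 0.58, from -1.69 to 0.25 and from -0.64 to 0.84. The lowest of these belonged to Ndst3, near Pde5a (adjusted p = 0.347, limma).

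Relatives of the members were taken as lists. Of the follistatin-related and SPARC family, 0 of 10 other genes tested passed for genotype (median log2 difference 0.01). Of the other cyclic nucleotide phosphodiesterases 0 of 19 passed (median 0.09), with Pde2a at -0.66 ± 0.186 (adjusted p = 0.226, limma) and Pde1c at 0.49 ± 0.152 (adjusted p = 0.296, limma). Of the genes for cGMP synthesis and effectors 0 of 18 passed (median -0.16), and of those for glutathione and lipid aldehyde metabolism 0 of 28 (median -0.01). The median over all genes tested was 0.00. Of the other glutathione S-transferases 0 of 20 passed (median -0.10). Gstt2 came nearest, at -0.80 ± 0.168 (adjusted p = 0.0571, limma). Gsta3, the closest measurable relative of Gsta4, was at -1.22 ± 0.459 (adjusted p = 0.433, limma), with 7.255 to 43.48 normalised counts in controls and 0 to 26.64 in knockouts. Gsta1 and Gsta2 were at 0 in all 25 libraries. In the core clock list 2 of 19 fell, Nr1d2 and Per3, and 0 rose. Npas2, which can take the place of Clock beside Bmal1, was at 1.79 ± 0.379 (adjusted p = 0.0571, limma).

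Across the 25 libraries, on the log2 scale, the members' values moved together mainly through genotype. Genotype in these same libraries chose the members, so each r over all libraries is a description that follows in part from that choice. Fstl5 and Pde5a had a Pearson r of 0.68 over all libraries and of 0.04 once the genotype means were removed. Gsta4 had r = -0.49 with Fstl5 and -0.58 with Pde5a, and 0.10 and -0.19 within genotypes. The genes most like Fstl5 were Hsd11b2 (r = 0.83, and 0.00 within genotypes), Laptm4b (0.70), Pde5a, D3Bwg0562e (0.68) and Mmp23 (0.61). Those most like Pde5a were D3Bwg0562e (0.75) and Cbx1 (0.75), which kept r = 0.54 and 0.57 within genotypes, then Hsd11b2, Pla2g7 (0.69) and Fstl5. Those most like Gsta4 were Ifit3 (0.74), Ccdc74a (0.73), Zfp429 (0.71), Ctnna1 (0.64) and Cd302 (0.62). The lowest were Gstt2 (-0.70) and Ppp1cc (-0.68) for Fstl5, Rbfox3 (-0.77) and Rasd2 (-0.73) for Pde5a, and Tmem196 (-0.69) and Syt10 (-0.68) for Gsta4. These were picked from 10361 genes, and the libraries share their genotype groups and size factors.

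Leptin was not used to choose the members and did not change them past the threshold. Leptin minus PBS, over both genotypes and times, gave log2 differences of 0.04 ± 0.158 for Fstl5 (adjusted p = 0.9999), -0.02 ± 0.258 for Pde5a (adjusted p = 0.9999) and 0.83 ± 0.386 for Gsta4 (adjusted p = 0.73, limma). The 95% intervals were -0.29 to 0.36, -0.55 to 0.51 and 0.03 to 1.62. In this contrast 0.925% of genes passed, among them Pde4b, a cAMP phosphodiesterase, which rose by 2.23 ± 0.282 (adjusted p = 5.3e-05, limma).

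ZT14 against ZT2 gave -0.08 ± 0.158 for Fstl5 (adjusted p = 0.937), -0.19 ± 0.258 for Pde5a (adjusted p = 0.89) and 0.76 ± 0.386 for Gsta4 (adjusted p = 0.483, limma), where 0.638% of genes passed. The clock genes Nr1d2 (2.04), Per3 (1.59) and Nr1d1 (0.78) rose and Arntl fell by 1.04 in the same contrast. None of the 3 members thus passed the test for a difference between the 2 times, which cannot show a rhythm that peaks between them.

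The genotype difference itself was tested for dependence on treatment and time, where 0% of genes passed in either interaction. Both are built from the genotype differences that chose the members, so their p-values for the members are no independent test. For Fstl5 the interaction with leptin was -0.01 (95% interval -0.66 to 0.64). For Pde5a it was -0.99 (unadjusted p = 0.0668, adjusted p = 0.919, limma). For Gsta4 it was 2.72 ± 0.772 (unadjusted p = 0.00179, adjusted p = 0.919, limma), in the direction of a smaller genotype difference with leptin. By time it was 2.15 ± 0.772 for Gsta4 (unadjusted p = 0.0105, adjusted p = 0.85, limma), 0.65 for Pde5a and 0.33 for Fstl5. At an unadjusted p under 0.05, 651 and 659 of 13942 genes had such interactions. With edgeR on recovered reads the adjusted p-values did not pass for any member either.

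The ZT5 libraries compared the same genotypes outside the leptin series, but Hsd11b2 went against the label in 2 of 5. The library labelled control 1 had 4628 normalised counts of Hsd11b2 and the library labelled knockout 3 had 11.24, whereas control 2 was at 0 and knockouts 1 and 2 at 3588 and 4573. Arntl did not separate the labels, with 750.3 and 390.4 in the libraries labelled control and 540.5, 470.2 and 491 in those labelled knockout.

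By label, Fstl5 at ZT5 was at 529.2 and 356.4 in controls and 763.9, 307.8 and 252 in knockouts, overlapping. Pde5a was at 64.47 and 0 in controls and 46.82, 5.7 and 60.9 in knockouts, also overlapping. Gsta4 was at 43.87 and 58.49 in controls and 13.38, 5.7 and 19.68 in knockouts, with all 3 libraries labelled knockout below both labelled control. That separation rests on the labels, 2 of which Hsd11b2 goes against: the library labelled control 1 had 43.87 and the library labelled knockout 3 had 19.68. The labelled differences were -0.15 ± 0.458 for Fstl5 (adjusted p = 0.937), 1.74 ± 1.79 for Pde5a (adjusted p = 0.784) and -2.04 ± 0.973 for Gsta4 (adjusted p = 0.579, limma). No gene passed (0%), and 1157 of 12940 had an unadjusted p under 0.05.

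Without the 2 libraries that go against their labels, 1 control and 2 knockouts are left, and the lone control is assumed to vary like the knockouts. The differences were then 0.44 ± 0.63 for Fstl5, 4.16 ± 1.93 for Pde5a, where the control is at 0, and -2.60 ± 1.27 for Gsta4 (adjusted p = 0.867, 0.53 and 0.553, limma). All 3 had the sign seen in the leptin series and none passed. For Fstl5 this turned the direction given by the labels. The interval by label for Fstl5, -1.19 to 0.88, lay below the 1.22 of the leptin series. For Gsta4, astrocyte markers summed to 108.3 and 55.77 in the libraries labelled control and 86.96 to 306.4 in those labelled knockout, and their part was not tested.

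RiboTag libraries carry the Cre allele without floxed Bmal1, so they show the members beside that allele alone, though by another method of isolation. Ad libitum, Fstl5 was at 620.7, 339.8 and 438.3 at ZT2 and 313.2, 450.7, 357.6 and 155.4 at ZT14 in RiboTag. In NPY-GFP cells it was at 384.5, 315.5, 339.9, 236.9, 472.7 and 599 at ZT2 and 254.8, 331.4 and 286.9 at ZT14. The ranges overlapped at both times.

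Pde5a in ad libitum RiboTag libraries was at 27.12, 228.4 and 14.64 at ZT2 and 225.8, 67.6, 29.59 and 82.45 at ZT14. This spread took in the control values of the leptin series and all its knockout values but the highest, 244.5. In NPY-GFP cells Pde5a was at 37.33, 43.13, 125.8, 64.32, 47.06 and 52.36 at ZT2 and 28.21, 26.3 and 28.54 at ZT14. Mural markers summed to 1114 to 27370 in these RiboTag and 35.56 to 124.9 in these NPY-GFP libraries. Their part in Pde5a was not tested.

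The median difference of all genes between the methods was 0.301 on the log2 scale, and 58.5% of genes passed. Fstl5 differed by 0.16 ± 0.561 (95% interval -0.96 to 1.28, adjusted p = 0.829, limma), which is -0.15 relative to that median. Pde5a differed by 0.58 ± 0.692 (-0.80 to 1.97, adjusted p = 0.485, limma), or 0.28 relative to the median. Neither passed the test, and both intervals take in 0 as well as the genotype differences of the leptin series, 1.22 and 1.76. Shifted by the median of all genes the intervals were -1.27 to 0.97 for Fstl5 and -1.10 to 1.66 for Pde5a. The shifted intervals take in 0 but end below the 1.22 and 1.76 of the leptin series. Method and Cre allele go together in this contrast and cannot be told apart.

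Gsta4 was higher in RiboTag. Ad libitum it was at 1388, 830.9 and 169.3 at ZT2 and 736, 296.2, 1008 and 351 at ZT14, against 11.84 to 99.79 in the 9 NPY-GFP libraries, with no overlap. The log2 difference was 4.00 ± 0.868 (adjusted p = 7.32e-05, limma), or 3.70 relative to the median of all genes. The AGRP-Cre knockouts of the leptin series, which carry the same driver, were at 0 to 28.87. Refed NPY-GFP cells, without Cre by label, were at 0 to 39.72. Astrocyte markers summed to 12280 to 98820 in the RiboTag and 59.18 to 510.2 in the NPY-GFP libraries, all 9 of them detected in RiboTag and Aqp4, Slc1a3, Gja1 and Agt at a median of 0 in NPY-GFP. Other non-neuronal lists were higher too. Over all 17 RiboTag libraries oligodendrocyte markers summed to 8837 to 224900 and microglial markers to 822.3 to 41090. In ad libitum NPY-GFP libraries they were at 578 to 897.3 and 1.315 to 28.41. Method, Cre allele and these markers cannot be told apart in this contrast.

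Set beside the leptin series with PBS, over both times, ad libitum RiboTag libraries had log2 differences from the floxed controls of 0.54 for Fstl5, 0.89 for Pde5a and 4.39 for Gsta4. From the knockouts they had -0.69, -1.37 and 7.82. The floxed controls differed from ad libitum NPY-GFP cells by -0.38, -0.30 and -0.39. Over all genes 53.1%, 50.4% and 3.54% passed in these 3 contrasts. They share libraries with the contrast that chose the members and are given for the members without a test.

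**Figure D2:**
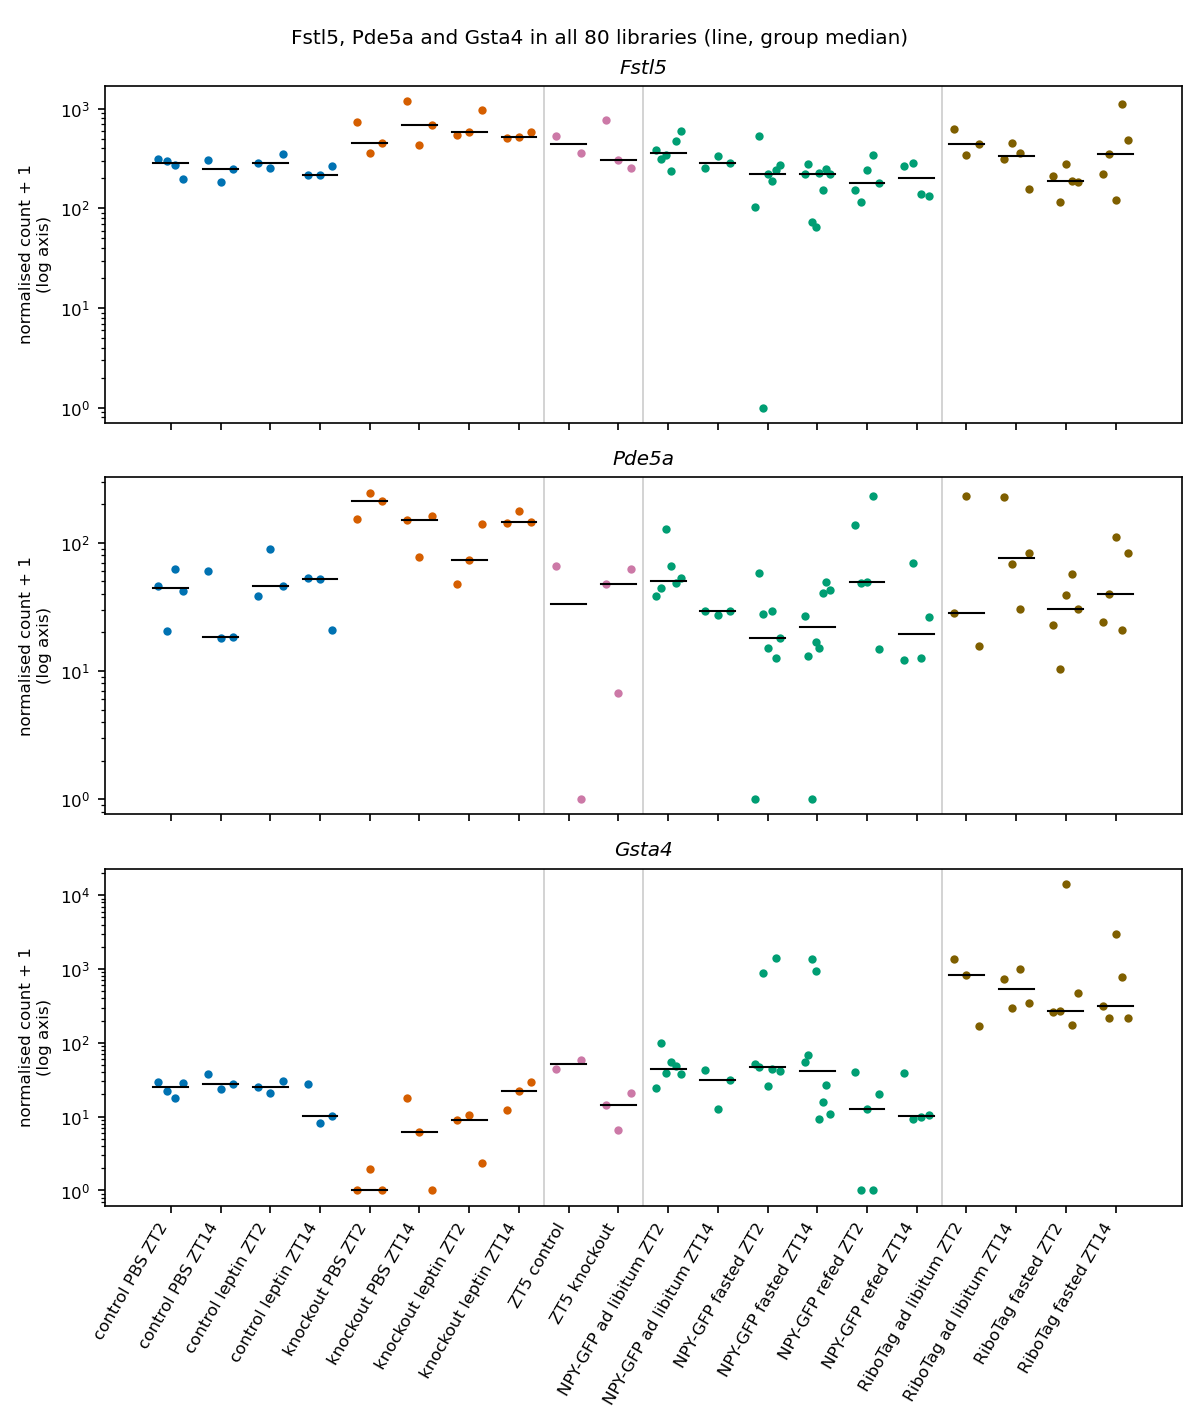
Normalised count plus 1 (log axis) of Fstl5, Pde5a and Gsta4 in the 80 libraries, by group along the x axis. Points are libraries, black lines group medians, and colours mark the series (blue, leptin series controls; orange, leptin series knockouts; pink, ZT5; green, NPY-GFP; brown, RiboTag). The 4 knockout groups of the leptin series hold the 4 highest medians of Fstl5 and the 4 RiboTag groups those of Gsta4.

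Ordered by median over the 20 groups, Fstl5 ran from 686.8 in knockouts with PBS at ZT14 to 179.4 in refed NPY-GFP cells at ZT2. The 4 knockout groups of the leptin series came first, at 455.2 to 686.8, and the labelled ZT5 controls next, at 442.8. Neighbouring groups in this order overlapped in range for Fstl5 and for Pde5a. Pde5a ran from 211 in knockouts with PBS at ZT2 to 17.11 in fasted NPY-GFP cells at ZT2. RiboTag ad libitum at ZT14, with a median of 75.03 and a range of 29.59 to 225.8, came before the knockouts with leptin at ZT2. Gsta4 ran from 830.9 in RiboTag ad libitum at ZT2 to 0 in knockouts with PBS at ZT2. The 4 RiboTag groups came first, with medians of 269.2 to 830.9, and the next median was 51.18, the only step between neighbours at which the ranges of Gsta4 did not overlap.

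Fasting separated many genes in NPY-GFP cells, where 44.7% passed, but none of the 3 members. Fstl5 had a median of 331.4 ad libitum (236.9 to 599, n = 9), 219.6 fasted (0 to 528.3, n = 15) and 179.4 refed (115.3 to 342.4, n = 9). Pde5a had medians of 43.13 (26.3 to 125.8), 17.11 (0 to 56.99) and 47.62 (11.23 to 231). Fasted minus ad libitum was -1.32 ± 0.612 for Fstl5 (adjusted p = 0.0772, limma) and -1.34 ± 0.617 for Pde5a (adjusted p = 0.0742, limma). Neither passed. With the replicate number as a block both did, Fstl5 at -1.69 (adjusted p = 0.0307, limma) and Pde5a at -1.72 (adjusted p = 0.0399, limma), and Fstl5 also did with a pseudocount of 8, at -1.08 (adjusted p = 0.0399, limma), and with all libraries in 1 fit (adjusted p = 0.018, limma). A single fasted library decided much of the Fstl5 value: ZT2 replicate 3 had no Fstl5 read, and without it the difference was -0.76 (adjusted p = 0.0288, limma). Without fasted ZT2 replicate 2, which had the highest fasted NPY-GFP value of either gene, Fstl5 was at -1.51 (adjusted p = 0.039, limma) and Pde5a at -1.51 (adjusted p = 0.0444, limma).

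Gsta4 split the fasted NPY-GFP libraries. It was at 877.3 and 1412 in replicates 3 and 6 at ZT2 and at 1373 and 926.3 in replicates 3 and 4 at ZT14, and at 8.318 to 68.35 in the other 11. Ad libitum libraries were at 11.84 to 99.79. The same 4 fasted libraries had summed astrocyte markers of 5693 to 18200, against 258.7 to 1493 in the other 11. Their tanycyte and ependymal markers summed to 5901 to 16020, against 763.6 to 1549. Other non-neuronal lists were higher too, so the excess was not particular to astrocytes. Mural markers summed to 519.2 to 941.5, against 17.8 to 214.8. Microglial markers were at 25.77 to 995.2 against 0 to 18.37, and oligodendrocyte precursor markers at 51.29 to 345.1 against 0 to 17.59. Oligodendrocyte and endothelial sums overlapped. Their AgRP neuron markers, at 444300 to 1076000, lay within the 180600 to 1083000 of the others.

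Fasted minus ad libitum was 1.22 ± 0.845 for Gsta4 (adjusted p = 0.244, limma). It was 3.08 with edgeR on recovered reads (adjusted p = 0.0151), and -0.16 ± 0.583 (adjusted p = 0.851, limma) without the 4 libraries. Without the same 4, which include the ZT2 replicate 3 that had no Fstl5 read, Fstl5 was at -0.55 ± 0.252 (adjusted p = 0.0758, limma) and Pde5a at -1.06 ± 0.57 (adjusted p = 0.134, limma). The 4 were set aside by their astrocyte markers, a limit of 5000 chosen after the data, and Gsta4 values, had been seen. Since they are also the 4 with the most Gsta4, its value without them is no independent test.

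Gsta4 was lower in refed than in fasted NPY-GFP libraries. After 1 h of food the 9 libraries were at 39.72, 0, 11.86, 0 and 19 at ZT2 and 38.35, 8.246, 8.762 and 9.402 at ZT14. Refed minus fasted was -3.10 ± 0.817 (adjusted p = 0.00361, limma), in a contrast where 30.2% of genes passed. The contrast crosses the split described above, with Alyref at 23.51 to 81.78 in refed and 549 to 2363 in fasted NPY-GFP libraries, so that refeeding and the split cannot be told apart. Without the 4 fasted libraries it was -1.72 ± 0.566 (adjusted p = 0.0232, limma), with refed and remaining fasted values overlapping. Astrocyte markers summed to 183.5 to 2332 in refed libraries. In the refed library with the sum of 2332 Gsta4 was at 0.

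Fstl5 and Pde5a did not pass for refeeding, at 0.54 ± 0.591 (adjusted p = 0.526, limma) and 1.27 ± 0.596 (adjusted p = 0.107, limma). For Pde5a the refed ZT2 replicate 5, at 13.72, weighed on this: without it the difference was 1.54 (adjusted p = 0.0494, limma). Without the 4 fasted libraries rich in astrocyte markers, Fstl5 turned to -0.22 (adjusted p = 0.567, limma).

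Refed against ad libitum, where 12.4% of genes passed, gave -0.78 ± 0.68 for Fstl5 (adjusted p = 0.504), -0.07 ± 0.686 for Pde5a (adjusted p = 0.966) and -1.88 ± 0.94 for Gsta4 (adjusted p = 0.189, limma). The 4 fasted libraries enter this contrast only through the shared estimate of spread. Without them the differences stayed at -0.78 and -1.88 and passed for Fstl5 (adjusted p = 0.0436, limma) and Gsta4 (adjusted p = 0.0347, limma). ZT14 against ZT2 in NPY-GFP cells, where 0.335% of genes passed, gave 0.09 for Fstl5, -0.76 for Pde5a and -0.16 for Gsta4, with adjusted p-values of 0.984, 0.764 and 0.98 (limma). Fasting by time, where 0% passed, gave 1.02, 1.21 and 0.05, each with an adjusted p of 0.999 (limma).

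**Figure D3:**
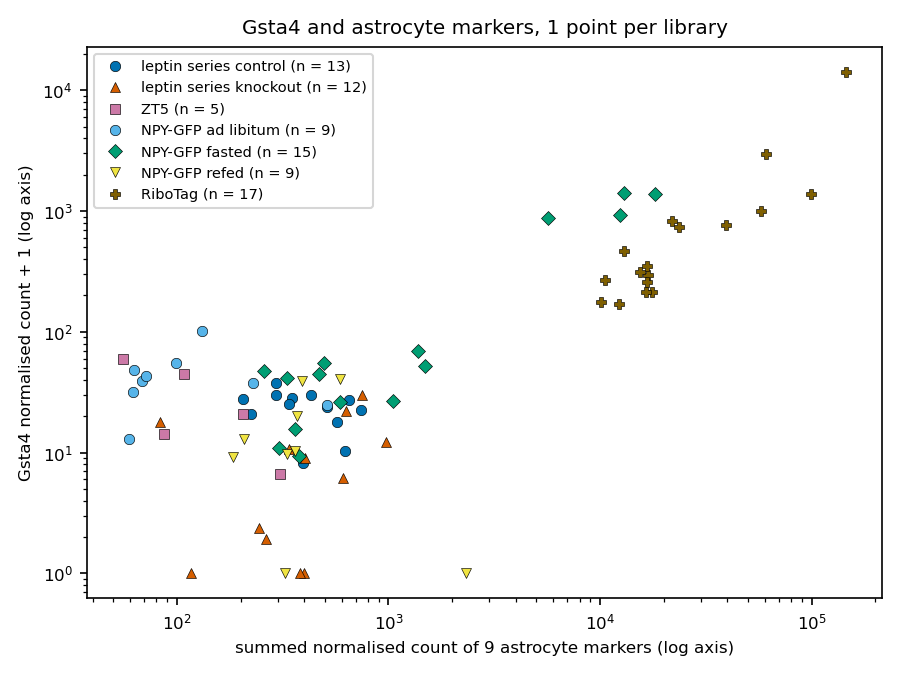
Gsta4 (normalised count plus 1, log y axis) against the summed normalised count of 9 astrocyte markers (log x axis), with 1 point for each of the 80 libraries and the series marked by colour and shape. The 17 RiboTag libraries and 4 fasted NPY-GFP libraries lie at marker sums above 5000 with Gsta4 at 169.3 or more. Below that sum Gsta4 is at 99.79 or less, and ad libitum NPY-GFP cells reach that value at a sum of 131.9.

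In RiboTag libraries fasting changed 22.1% of genes and none of the 3 members passed. Fasted Fstl5 was at 208.5, 114.6, 275.9, 188.2 and 182.1 at ZT2 and 219.4, 350.6, 120.2, 1122 and 482.1 at ZT14. At ZT2 all 5 were below the 3 ad libitum values, and at ZT14 the groups overlapped. The difference over both times was -0.53 ± 0.373 (adjusted p = 0.323, limma), and fasting by time was 1.49 ± 0.747 (unadjusted p = 0.0614, adjusted p = 1, limma), a contrast in which 0% of genes passed.

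Pde5a in fasted RiboTag libraries was at 9.329 to 55.83 at ZT2 and 19.75 to 110.2 at ZT14, with a difference of -0.79 ± 0.591 (adjusted p = 0.351, limma). Gsta4 was at 175 to 14170 at ZT2 and 213.3 to 2990 at ZT14, with a difference of 0.00 ± 0.8 (adjusted p = 0.999, limma). The fasted libraries with 14170 and 2990 also had the highest astrocyte sums of their groups, 145100 and 60650. Between ZT14 and ZT2 in RiboTag, where 0% of genes passed, the members differed by 0.14, 0.74 and -0.20, each with an adjusted p of 0.998 (limma).

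The lists of relatives were also counted in the fasting contrasts, where 44.7% of all genes passed in NPY-GFP cells and 22.1% in RiboTag. With so many genes changed, these counts show nothing particular to the relatives. Of the list for glutathione and lipid aldehyde metabolism 13 of 30 rose and 0 fell in fasted NPY-GFP cells. Without the 4 fasted libraries rich in astrocyte markers, where 43.3% of all genes passed, 11 rose and 2 fell. In RiboTag 4 of 31 rose and 1 fell. Gclm and Gclc, the subunits of the enzyme that limits glutathione synthesis, rose by 2.55 ± 0.182 and 2.02 ± 0.223 in NPY-GFP cells and by 3.66 ± 0.208 and 2.83 ± 0.249 in RiboTag. Of the other glutathione S-transferases 3 of 22 rose and 5 fell in NPY-GFP cells, 4 and 7 without the 4 libraries, and 2 of 21 rose in RiboTag. Of the other phosphodiesterases 1 of 20 rose and 5 fell in NPY-GFP cells, 1 and 3 without the 4 libraries, and in RiboTag 3 of 19 rose and 1 fell. The cAMP phosphodiesterase gene Pde4d fell by 1.69 ± 0.256 in NPY-GFP cells and was at 0.13 ± 0.341 in RiboTag (adjusted p = 0.819, limma), a difference between the methods that was not tested. Of the cGMP list 5 of 19 rose and 4 fell in NPY-GFP cells, 4 and 5 without the 4 libraries, and in RiboTag 2 of 20 rose and 4 fell. The natriuretic peptide clearance receptor gene Npr3 fell by 4.07 ± 0.698 in NPY-GFP cells and by 2.51 ± 0.836 in RiboTag. Of the follistatin-related list 4 of 11 rose and 2 fell in NPY-GFP cells, 3 and 2 without the 4 libraries, and in RiboTag 2 of 13 rose and 1 fell. Each gene said to rise or fall had an adjusted p under 0.05 (limma).

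**Figure D4:**
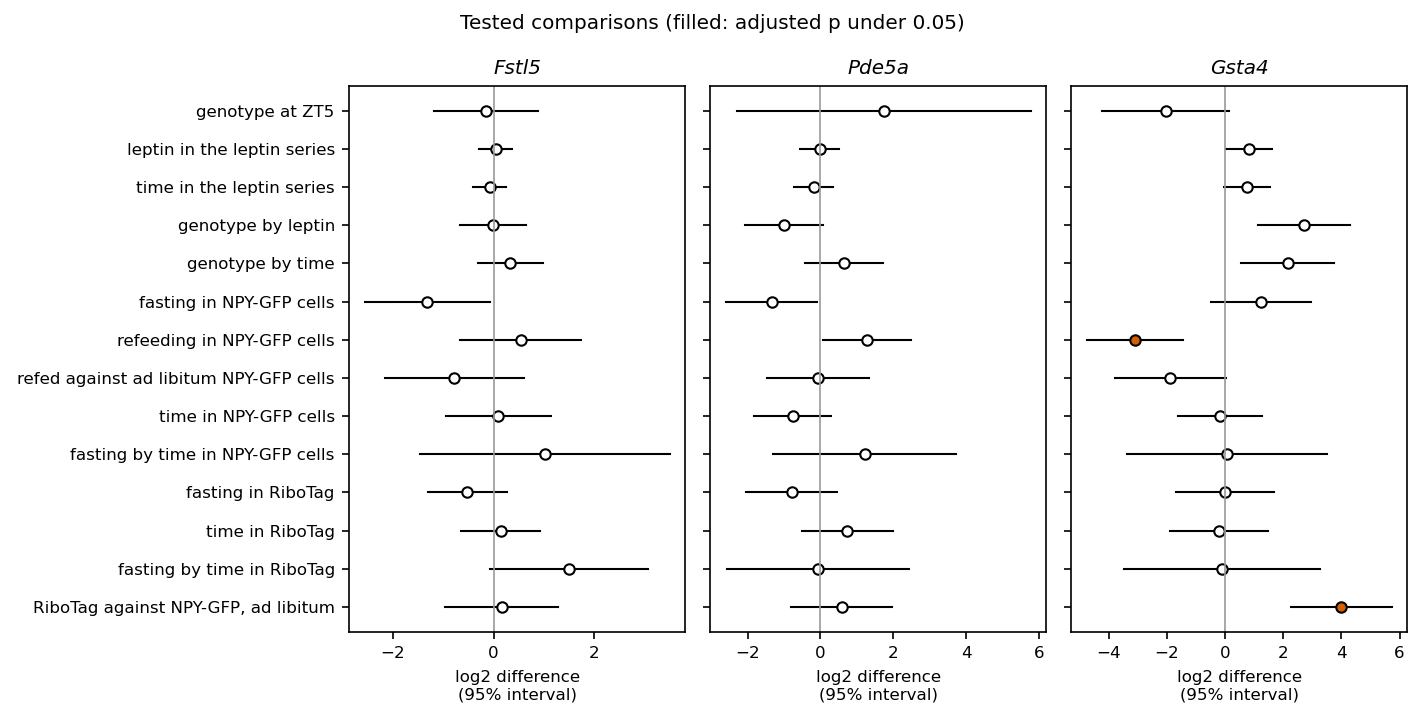
Log2 differences of Fstl5, Pde5a and Gsta4 (x axis) in 14 comparisons other than the genotype contrast that chose them. Lines are 95% intervals, and points are filled where the adjusted p is under 0.05. Genotype by leptin and genotype by time are built from the genotype differences that chose the members. Gsta4 is filled for refeeding, at -3.10, and for RiboTag against NPY-GFP, at 4.00, and no point is filled for Fstl5 or Pde5a.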

How the data were processed

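RNA of AgRP neurons was amplified with SMART-seq v4 and made into Nextera XT libraries, per the labels' protocols. The submitters' processing notes name STAR 2.5.1, featureCounts (Subread), DESeq, DESeq2, R 3.5.1 and mm10, with no role or order. The authors deposited 1 table of normalised counts, a signal equal to the gene count divided by a size factor of each library: whole reads came back from 99.99% or more of the values (within 0.1) in 79 of 80 libraries, held 5.925 to 33.98 M reads each, and in 1 ad libitum NPY-GFP library did not. Intervals cover the spread between libraries, and reads have no molecular identifiers. The members and lists were chosen with earlier results of these data known.

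Each series was fitted alone with limma 3.58.1 (limma-trend, group means, log2(value + 1), two-sided moderated test, Benjamini-Hochberg over all genes tested, threshold 0.05) after a filter (10 or more in enough libraries to fill the smallest group). RiboTag against NPY-GFP used all 80 libraries. Strata were weighted equally. Fold changes on this scale understate low genes. The scripts were tested on simulated data. Alternatives were a pseudocount of 8, no filter, TMM, edgeR 4.0.16 (quasi-likelihood) on recovered reads, the replicate number as a block, all libraries or only the groups compared in 1 fit, and each library left out. 2 more sets of left-out libraries were chosen after seeing the data. The genes named are the members, the control genes, the 5 most and 2 least like each member by Pearson r (mean log2 value of at least 5), the genes passing for genotype, and members of the lists.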

Additional observations from a re-analysis of the deposited data

Results flagged for a closer look

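4 values stood apart from their groups by the gap between the extreme library and its neighbour, out of 27 sets of values, 3 genes in each of 9 groups of 4 to 10 libraries, where chance gives about 1 in 20 sets. Pde5a was at 125.8 in ad libitum NPY-GFP replicate 3 at ZT2, the highest of 6. Gsta4 was at 38.35 in refed NPY-GFP replicate 1 at ZT14, the highest of 4. Gsta4 was also at 2990 in fasted RiboTag replicate 3 at ZT14 and at 14170 in fasted RiboTag replicate 3 at ZT2, each the highest of 5.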

How the results depend on the processing

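The 45 values of the members were recomputed 1248 times, and 1150 kept their direction and side of the threshold, 884 of 960 when a library was left out. The genotype differences of the leptin series kept their direction throughout, with Gsta4 at -1.03 at a pseudocount of 8. With that pseudocount Fstl5 passed for fasting in NPY-GFP cells at -1.08 (adjusted p = 0.0399, limma), and the sign turned for Pde5a refed against ad libitum (0.01) and Fstl5 by time in NPY-GFP cells (-0.04). With all libraries in 1 fit Fstl5 passed for that fasting at -1.32 (adjusted p = 0.018, limma). With edgeR on recovered reads Gsta4 passed for it at 3.08. The sign turned there for Fstl5 by leptin (-0.01), at ZT5 (0.00), by time in NPY-GFP cells (-0.24) and in RiboTag against NPY-GFP (-0.00), and for Pde5a refed against ad libitum (0.38) and fasting by time in RiboTag (0.57). Replicate numbers showed no general pairing (median correlation of same-numbered deviations 0.0321, -0.0216, 0.00123 and -0.032 in the leptin, ZT5, NPY-GFP and RiboTag series). Single correlations were above 0.1 in 22 of 78, 0 of 2, 12 of 65 and 7 of 22 cases. The medians cannot show that no libraries were paired. With the number as a replicate block 41 of 45 values were as before, Fstl5 was at -0.03 for leptin and 0.16 at ZT5, and fasting in NPY-GFP cells passed for Fstl5 (-1.69, adjusted p = 0.0307, limma) and Pde5a (-1.72, adjusted p = 0.0399, limma). Without the 2 ZT5 libraries Fstl5 was at 0.44. Without the 4 fasted libraries Gsta4 was at -0.16 for fasting, Fstl5 at -0.22 for refeeding and -0.14 by time, and refed against ad libitum passed for Fstl5 (-0.78) and Gsta4 (-1.88). The cause of these changes was not tested.

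Leaving out each library in turn gave, for Fstl5, -0.05 to 0.13 for leptin, -0.17 to 0.01 for time, -0.19 to 0.18 for genotype by leptin, -0.64 to 0.16 at ZT5, -1.51 to -0.76 for fasting, -0.02 to 0.74 for refeeding, -0.28 to 0.22 for time in NPY-GFP cells, -0.10 to 1.40 for fasting by time there and -0.07 to 0.33 for time in RiboTag. For Pde5a it gave -0.12 to 0.12 for leptin, -1.27 to 4.76 at ZT5, -1.51 to -1.02 for fasting, 0.94 to 1.54 for refeeding, -0.34 to 0.19 refed against ad libitum and, in RiboTag, -1.21 to 0.73 for fasting by time. For Gsta4 it gave -0.39 to 0.06 for time and -0.59 to 0.68 for fasting by time in NPY-GFP cells. In RiboTag it gave for Gsta4 -0.57 to 0.32 for fasting, -0.64 to 0.37 for time and -0.76 to 1.02 for fasting by time. Calls of Gsta4 for refeeding and RiboTag held each time.

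Counts of genes that passed for genotype moved from 11 to 21 (pseudocount 8), 17 (no filter) or 4 (all libraries in 1 fit), and for leptin from 129 to 70 (no filter) or 57 (1 fit). At ZT5 they moved from 0 to 1 (no filter, or without the 2 libraries), 2 (block) or 280 (1 fit). They moved from 89 to 19 (1 fit) or 42 (block) for time, from 50 to 16 (block) for time in NPY-GFP cells and from 3411 to 5464 (1 fit) for fasting in RiboTag. Counts of 0 to 3 in single strata and interactions, and for time in RiboTag, moved to between 1 and 5. In the leptin series Gsta4 had the fewest reads, a median of 14.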
